A study of Arabidopsis thaliana with 25 samples.

Results

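The 10 genes described here encode enzymes that make carotenoids in the plastid and run the xanthophyll cycle. They were chosen by their identifiers: PSY (AT5G17230), PDS (AT4G14210), ZDS (AT3G04870), LYC (AT3G10230), LUT2 (AT5G57030), LUT1 (AT3G53130), LUT5 (AT1G31800), BCH1 (AT4G25700), ZEP (AT5G67030) and VDE (AT1G08550). They are 10 of 38676 Arabidopsis entries in the count table, and all 10 are among the 20615 entries with enough counts to be tested. Transcripts were counted by stranded paired-end RNA-seq in dissected cotyledons, the seed leaves, of wild-type Arabidopsis thaliana. L seedlings had grown for 5 days under long days, 1h, 6h and 24h seedlings had grown for 5 days in darkness and then been moved to continuous light for 1, 6 or 24 h, and D seedlings had grown for 5 days in darkness, all on MS 1/2 medium. Cotyledons were fixed in acetone before they were cut off. Each of these 5 groups holds 5 libraries, replicates 1 to 5, labelled as biological replicates. No dark-grown seedlings harvested alongside the lit ones were analysed here, so effects of light, of added hours of growth and of the hour of harvest cannot be told apart. The L and 24h groups differ both in light regime and in total time under light.

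Carotenoids are built from geranylgeranyl diphosphate, which the plastid makes from the precursors of the methylerythritol phosphate (MEP) pathway. PSY, phytoene synthase, joins a pair of these molecules into phytoene and is known as the main entry point of the pathway. PDS and ZDS, the desaturases, and a pair of isomerases turn phytoene into red lycopene. At lycopene the pathway forks: LYC, the beta-cyclase, leads to beta-carotene, and LUT2, the epsilon-cyclase, together with LYC leads to alpha-carotene and lutein. LUT1 and LUT5 are cytochrome P450 hydroxylases of the lutein branch, and BCH1 hydroxylates beta-carotene to zeaxanthin. ZEP, zeaxanthin epoxidase, converts zeaxanthin to violaxanthin, and VDE, violaxanthin de-epoxidase, converts it back when light is in excess. Etiolated cotyledons already hold some carotenoids, and lutein, beta-carotene and violaxanthin are built into the photosystems as the cotyledons turn green.

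The stretches upstream of 4 genes are shown: ZEP, PSY and BCH1, because they are those of the 10 genes called higher after 1 h of light under at least 1 of the scalings used below, and BCH2 (AT5G52570), because it is the close copy of BCH1. Each is the 300 bases before the start of the gene, 5′ to 3′ on the gene's strand, read from the RefSeq genome with its annotation (build TAIR10.1), and none overlaps another annotated gene. Capitals mark matches, on either strand, to 5 short motifs that are known from promoters of light- and clock-regulated plant genes or of carotenoid genes. These are the G-box CACGTG, the PBE-box CACATG, the element ATCTA, the evening element AAAATATCT and the I-box core GATAAG.
ZEP (chr5:26757403-26757702, minus strand): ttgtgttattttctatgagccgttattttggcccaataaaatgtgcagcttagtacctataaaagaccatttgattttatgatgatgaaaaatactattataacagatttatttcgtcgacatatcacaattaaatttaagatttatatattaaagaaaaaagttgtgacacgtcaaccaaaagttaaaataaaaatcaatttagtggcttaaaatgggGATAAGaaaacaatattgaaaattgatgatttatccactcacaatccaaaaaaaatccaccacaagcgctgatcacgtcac
PSY (chr5:5662998-5663297, minus strand): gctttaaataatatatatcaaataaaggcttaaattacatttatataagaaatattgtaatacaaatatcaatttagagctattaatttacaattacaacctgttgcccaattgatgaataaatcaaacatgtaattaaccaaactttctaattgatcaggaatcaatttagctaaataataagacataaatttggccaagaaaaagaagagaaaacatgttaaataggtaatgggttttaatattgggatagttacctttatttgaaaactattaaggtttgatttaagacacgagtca
BCH1 (chr4:13096050-13096349, minus strand): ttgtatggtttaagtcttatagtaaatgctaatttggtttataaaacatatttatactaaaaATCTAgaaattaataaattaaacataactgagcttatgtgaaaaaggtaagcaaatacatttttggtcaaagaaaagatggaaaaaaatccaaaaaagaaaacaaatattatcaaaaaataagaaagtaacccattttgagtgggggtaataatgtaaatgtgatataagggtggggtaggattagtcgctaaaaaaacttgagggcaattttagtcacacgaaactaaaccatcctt
BCH2 (chr5:21337127-21337426, minus strand): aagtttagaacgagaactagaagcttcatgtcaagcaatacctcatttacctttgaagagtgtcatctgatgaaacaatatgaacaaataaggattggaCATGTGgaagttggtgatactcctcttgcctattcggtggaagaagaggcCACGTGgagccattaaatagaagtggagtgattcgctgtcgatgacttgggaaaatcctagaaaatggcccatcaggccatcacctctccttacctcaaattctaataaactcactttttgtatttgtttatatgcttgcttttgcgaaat

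ZEP holds 1 I-box core, in capitals, starting 81 bases before the gene, PSY holds no match, and BCH1 holds 1 ATCTA. BCH2 holds 1 G-box 151 bases and 1 PBE-box, on the other strand, 201 bases before its start. No window of the 10 genes holds a G-box, a PBE-box or an evening element. PDS, ZDS, LUT2 and BCH1 hold ATCTA, and LUT1 and ZEP hold the I-box core. Among 27443 windows of the same length, 7.09% hold the G-box, 13.1% the PBE-box, 56.0% ATCTA, 2.79% the evening element and 14.5% the I-box core, so ATCTA is in more of these windows than not. BCH1 and BCH2 are both beta-carotene hydroxylases and agree at 83.7% of 887 aligned coding bases. Their longest identical coding run is 33 bases. Read length was not examined, so whether some reads could belong to either gene is not known, and values of both carry that uncertainty.

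Drosophila cells had been added before RNA extraction, so gene levels could be set against an outside RNA. Its share varied between libraries of a group: nuclear Arabidopsis counts per Drosophila count ran from 23.1 to 74.7 in D and 30.9 to 95.2 at 1h. They ran from 44.7 to 127 at 6h, 103 to 267 at 24h and 219 to 536 in L, and spike-scaled levels carry this spread. Spike-scaled CPM are counts scaled as CPM are, but by a library size set by that library's Drosophila counts. On this scale the median gene moved too: its log2 fold change over D was 0.03 in 1h, 0.56 in 6h, 1.19 in 24h and 2.35 in L cotyledons. Its 1h value was 1.32 within replicates 1 and 2 alone and -0.58 within replicates 3 to 5 alone. The members were therefore also fitted with TMM scaling over Arabidopsis genes, which centres the median gene near 0 and shows what a gene did relative to the other plant genes. Libraries held 17901840 to 24085995 counts. In bulk tissue, more cells that express a gene and more of its RNA per cell cannot be told apart. Replicates 1 and 2 differ from replicates 3 to 5 in every group by their plastid share of Arabidopsis counts, with medians of 2.12% and 7.76%, and values within each set are given beside the pooled ones. Of the 4 markers of green cotyledon fixed for the label check, the summed level was 68468 to 104295 TMM-scaled CPM in L and 17681 to 34738 in D. The 6 root markers together had 0.694 to 3.89 TMM-scaled CPM in L and 0.342 to 1.13 in D, with COBL9 at 0 counts in D and 6h. Of the 2 root markers that could be tested, 2 were called higher in L than in D with spike scaling and 1 with TMM scaling (median log2 fold change 1.50 with TMM). The 3 markers of the shoot meristem summed to 0.0953 to 0.925 in L and 4.88 to 8.96 in D. The 3 epidermis markers summed to 128 to 199 in D, 167 to 286 at 1h, 193 to 397 at 6h, 164 to 268 after 24h and 146 to 259 in L, and all 3 were called higher at 6h than in D with TMM scaling (median log2 fold change 0.82). The 3 vasculature markers summed to 51.1 to 98.7 in L and 41.4 to 59.7 in D. The part of cell composition in the results was not tested.

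With spike scaling all 10 genes were higher after 24 h of light and in long-day cotyledons than in dark-grown ones, and after 1 h of light ZEP alone passed the test. Calls came from edgeR's quasi-likelihood test with Benjamini-Hochberg adjustment over all 20615 genes, at an adjusted p under 0.05. At 1h 1 of the 10 genes was called higher, where 3.06% of all genes were. At 6h 7 of 10 were called higher against 21.4% of all genes, after 24h 10 of 10 against 50.3%, and in L 10 of 10 against 84.9%. The L count is near the share of all genes. In the fits of all libraries, none of the 10 was called lower in any of the 4 comparisons with D by edgeR or by DESeq2. Nor had any of them a lower value there at an unadjusted p under 0.05. Of all genes, 0.994%, 5.05%, 3.76% and 1.96% were called lower (5.21%, 25.9%, 27.8% and 28.1% with TMM scaling). With TMM scaling and L replicates 1 to 3 only, VDE was called lower in L, as given below. That choice leaves out the L libraries with the highest VDE values. The median log2 fold change of the 10 was 0.29 at 1h, 1.66 at 6h, 2.49 after 24h and 4.13 in L, against the all-gene medians given above. With TMM scaling 3, 10, 9 and 9 of the 10 were called higher, where 8.94%, 26.9%, 27% and 28.6% of all genes were, with medians of 0.37, 1.16, 1.33 and 1.83. VDE was the gene not called after 24h and in L. Within replicates 1 and 2 alone 4, 10, 10 and 10 were called higher than in D, where 8.31%, 39.8%, 61.1% and 87.8% of all genes were. Within replicates 3 to 5 alone 0 (1 at an unadjusted p under 0.05), 3, 9 and 10 were, where 1.22%, 8.54%, 28.2% and 64.2% of all genes were. By their libraries, 1, 4, 10 and 10 of the 10 genes were higher in every library of 1h, 6h, 24h and L than in any D library, which 2.3%, 10.6%, 35.7% and 68% of all genes were.

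**Figure D1:**
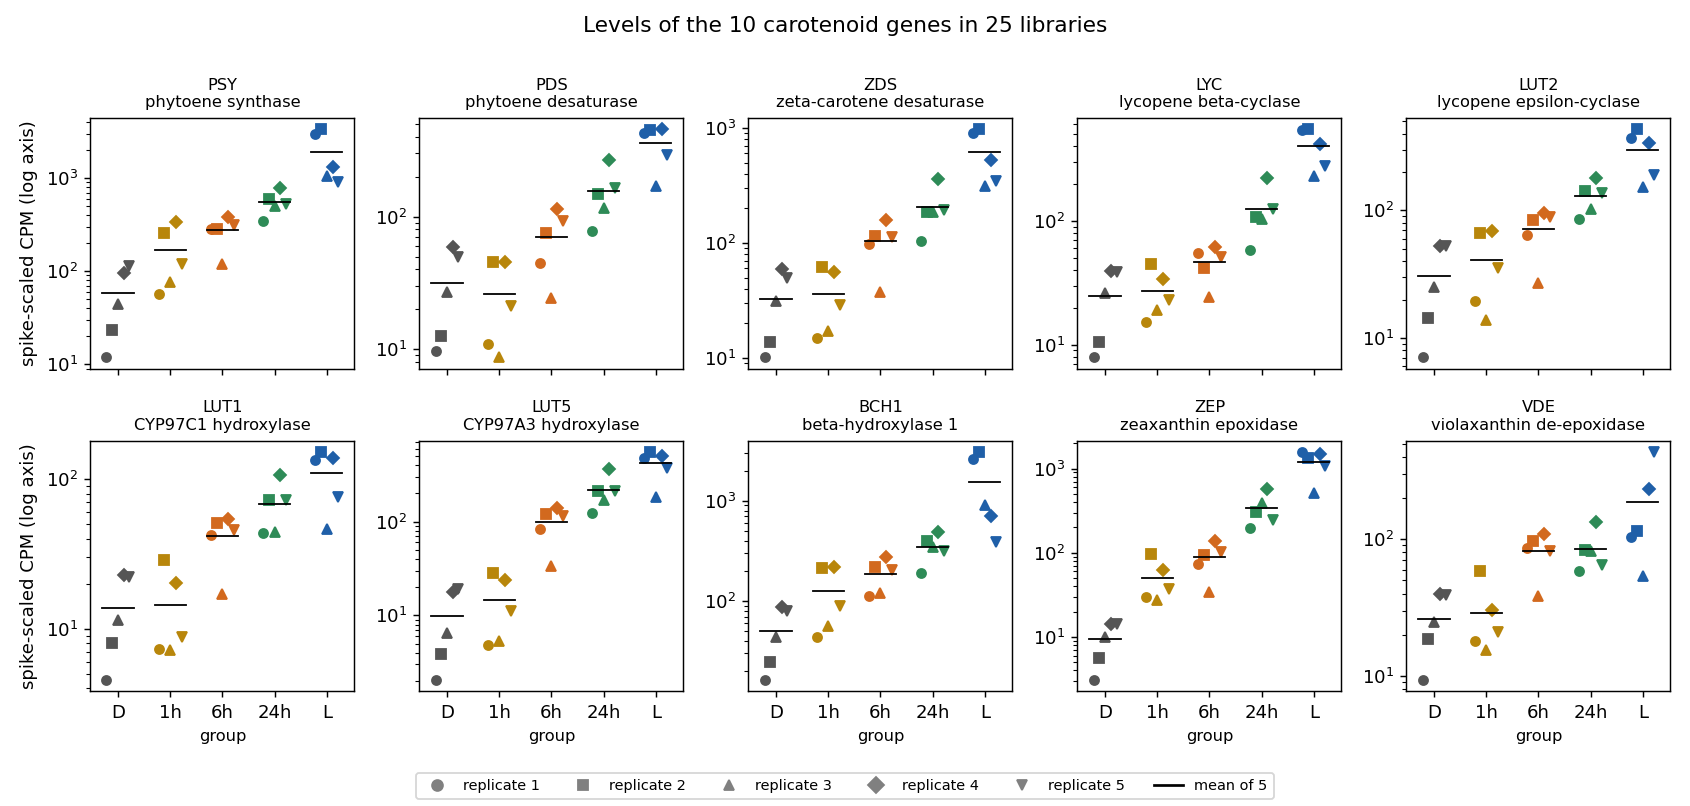
Spike-scaled CPM (log axis) of each of the 10 genes in the 25 libraries by group, with a marker for each replicate number and a black bar at the mean of 5. Every gene's 24h and L libraries lie above all its D libraries, and ZEP's 1h libraries already do. Among the L libraries, those of VDE and BCH1 are spread the most widely.

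**Figure D2:**
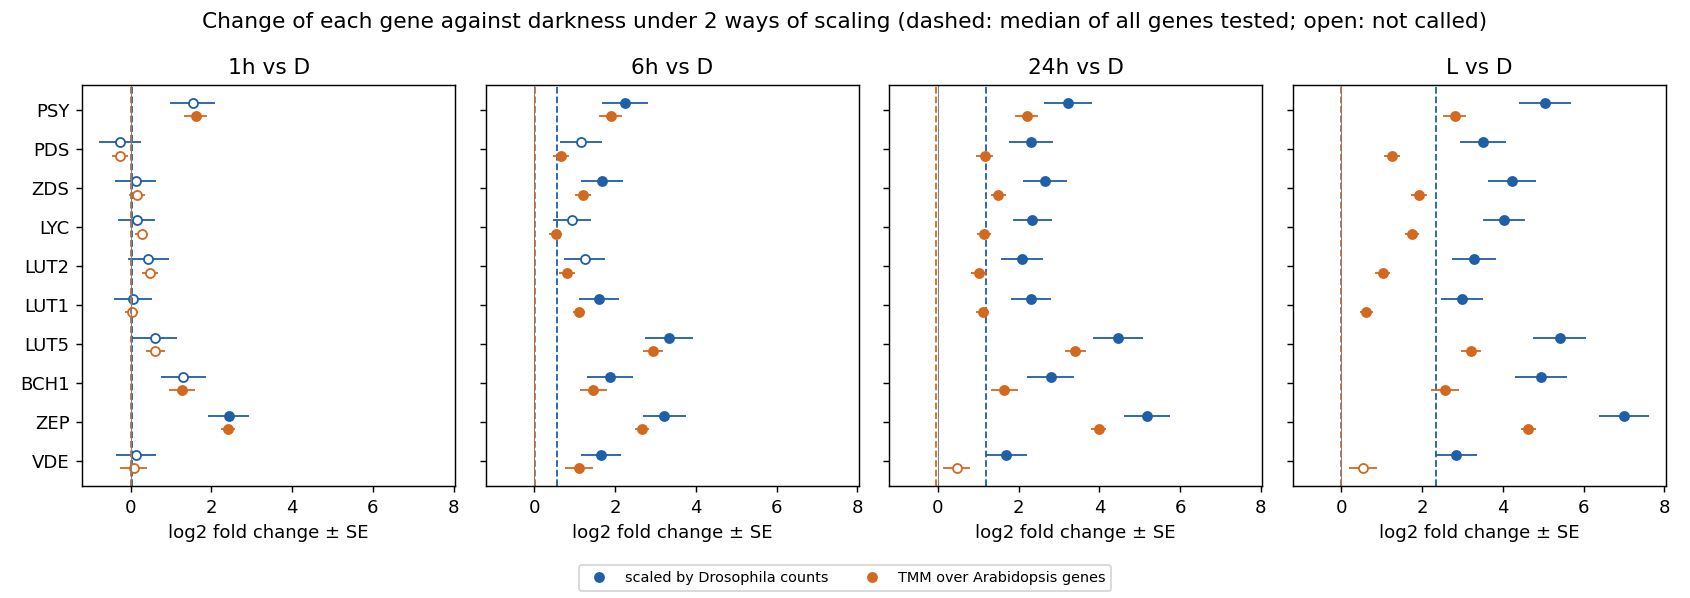
Log2 fold change against D with its SE for each of the 10 genes, scaled by Drosophila counts (blue) or by TMM over Arabidopsis genes (orange); filled points were called and open points were not, and dashed lines mark the median of all genes tested. The blue median moves to 2.35 in L, and ZEP, LUT5, PSY and BCH1 lie furthest to the right of it there.

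PSY, the entry enzyme, was the gene with the highest level per coding length beside BCH1 in every group. PSY had 11.9, 23.1, 44.9, 96.5 and 115 spike-scaled CPM in D replicates 1 to 5, 56.3, 259, 77.5, 334 and 120.2 at 1h, 281, 282, 121, 379 and 314 at 6h, 346, 592, 499, 774 and 529 at 24h and 3007, 3339.9, 1053, 1308 and 917 in L. At 1h all 5 values lay above the median of the D values, but they overlapped the D range. The log2 fold change was 1.54 ± 0.56 (SE) at 1h and did not pass (adjusted p = 0.146). It was 2.24 ± 0.57 at 6h (adjusted p = 0.00356), 3.23 ± 0.60 after 24h (4.07e-05) and 5.05 ± 0.65 in L (3.80e-08), and the libraries of these groups did not overlap those of D. Relative to other plant genes PSY was higher at 1h already, by 1.61 ± 0.28 with TMM scaling (adjusted p = 0.000198). Its spike-scaled 1h value was 3.17 within replicates 1 and 2 and 1.05 within replicates 3 to 5.

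With spike scaling the desaturases passed later than ZEP: ZDS at 6h and PDS after 24h. With TMM scaling both were called higher at 6h, as all 10 genes were. PDS had 9.68, 12.5, 26.8, 59.3 and 49.3 spike-scaled CPM in D replicates 1 to 5, 10.9, 45.3, 8.73, 45.4 and 21.0 at 1h, 45.1, 75.3, 24.5, 113 and 93.1 at 6h, 78.2, 148, 117, 268 and 165 at 24h and 424, 449, 171, 454 and 291 in L. PDS did not pass at 1h (-0.26 ± 0.52, adjusted p = 1) or at 6h (1.16 ± 0.53, adjusted p = 0.102). It rose by 2.30 ± 0.55 after 24h (adjusted p = 0.000871) and by 3.51 ± 0.58 in L (2.51e-06). With the replicate number as a block, which pairs the libraries, the 6h value of PDS was 1.12 and was called; it was called likewise without D replicate 4 (1.52) or 6h replicate 3 (1.37).

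ZDS had 10.14, 13.6, 31.3, 59.4 and 49.5 spike-scaled CPM in D replicates 1 to 5, 15.04, 61.4, 17.1, 55.9 and 28.9 at 1h, 98.5, 114, 37.6, 159.9 and 112 at 6h, 104, 185, 185, 362 and 192 at 24h and 899, 973, 315, 531 and 347 in L. ZDS, which acts after PDS, overlapped the D libraries at 1h and did not pass (0.12 ± 0.51, adjusted p = 1). It rose by 1.67 ± 0.53 at 6h (adjusted p = 0.017), although 6h replicate 3 lay below D replicates 4 and 5, by 2.65 ± 0.54 after 24h (0.000166) and by 4.22 ± 0.58 in L (1.40e-07). The 6h call of ZDS was lost without D replicate 1 (1.44), D replicate 2 (1.47) or 6h replicate 4 (1.46). Within replicates 1 and 2 the 6h value was 3.16 and was called, and within replicates 3 to 5 it was 1.14 and was not.

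The ratio of PSY to PDS counts within a library does not depend on any scaling. Its log2 value was 0.30, 0.88, 0.74, 0.70 and 1.22 in D replicates 1 to 5, 2.36, 2.52, 3.15, 2.88 and 2.51 at 1h, 2.64, 1.91, 2.30, 1.74 and 1.75 at 6h, 2.14, 2.00, 2.09, 1.53 and 1.68 after 24h and 2.83, 2.90, 2.62, 1.53 and 1.65 in L. Every lit library lay above every D library. The difference from D was 1.91 ± 0.21 (SE) at 1h, 1.30 ± 0.23 at 6h, 1.12 ± 0.19 after 24h and 1.53 ± 0.33 in L (two-sided exact permutation p = 0.00794 each, the smallest that 5 against 5 allows, adjusted over 16 ratio tests 0.0141). With the pairs by replicate number kept, an exact test cannot go below p = 0.0625, and no ratio passes that way (adjusted 0.0769 for those called here). In replicates 1 and 2 the differences were 1.85, 1.68, 1.48 and 2.27, and in replicates 3 to 5 1.96, 1.04, 0.88 and 1.04, in the order 1h, 6h, 24h and L.

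At the fork of the pathway both cyclases rose, with LYC ahead of LUT2 in L. LYC had 7.94, 10.6, 26.0, 39.6 and 38.8 spike-scaled CPM in D replicates 1 to 5, 15.3, 44.9, 19.3, 33.7 and 22.8 at 1h, 55.1, 41.5, 24.4, 61.5 and 51.3 at 6h, 58.2, 108, 104, 224 and 125 at 24h and 541, 548, 231, 417 and 279 in L. LYC did not pass at 1h (0.15 ± 0.46, adjusted p = 1) or at 6h (0.93 ± 0.47, 0.136). It rose by 2.33 ± 0.48 after 24h (adjusted p = 0.000189) and by 4.04 ± 0.52 in L (4.16e-08), with no overlap with D. The 6h value of LYC was called with TMM scaling, as those of all 10 genes were.

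LUT2 had 7.07, 14.4, 24.95, 53.0 and 52.4 spike-scaled CPM in D replicates 1 to 5, 19.6, 66.5, 13.9, 69.4 and 35.3 at 1h, 63.6, 83.6, 26.8, 96.3 and 89.2 at 6h, 85.6, 142, 102, 179 and 138 at 24h and 371, 432, 152, 336 and 189 in L. LUT2 had 0.43 ± 0.50 at 1h (adjusted p = 1) and 1.24 ± 0.51 at 6h (0.0667), where neither passed. It rose by 2.09 ± 0.52 after 24h (adjusted p = 0.00139) and by 3.29 ± 0.55 in L (3.12e-06). Its 6h value was called with the replicate block (1.25) and without D replicate 4 (1.54), D replicate 5 (1.53) or 6h replicate 3 (1.45). With TMM scaling the 6h value of LUT2 was called too.

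The log2 ratio of LUT2 to LYC counts was -0.55, -0.34, -0.60, -0.31 and -0.56 in L replicates 1 to 5 and -0.17, 0.45, -0.06, 0.42 and 0.43 in D replicates 1 to 5. All 5 L libraries lay below all 5 D libraries, a difference of -0.69 ± 0.15 (exact permutation as above, p = 0.00794 and 0.0141 after adjustment). Within sets it was -0.58 in replicates 1 and 2 and -0.76 in replicates 3 to 5. At 1h, 6h and 24h the ratio differed from D by 0.21 ± 0.28, 0.34 ± 0.22 and -0.07 ± 0.21, with overlapping libraries, and none passed (exact permutation, adjusted p = 0.525, 0.19 and 0.722). LUT2 counts can miss reads too: a merged entry that joins LUT2 and its neighbour AT5G57020 held 0.224% to 11.7% of the combined reads, by library. These ratios leave that entry out and were not tested with it added.

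**Figure D3:**
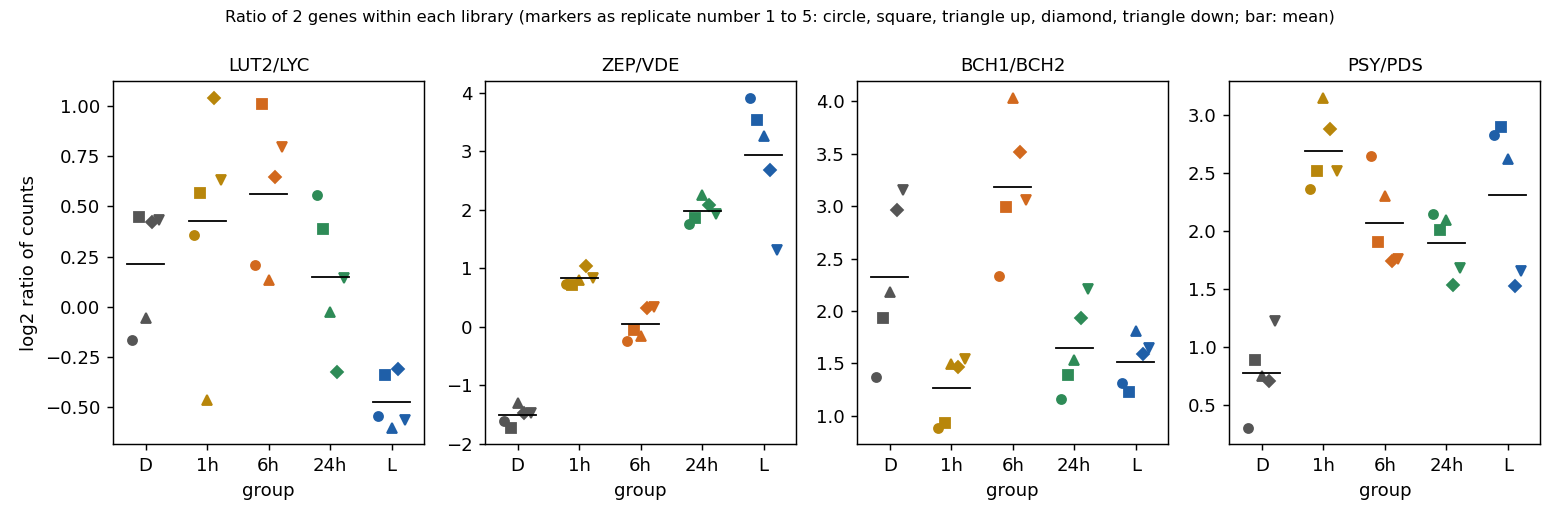
Log2 ratio of the counts of 2 genes within each library by group, with markers for replicate numbers and a bar at the mean of 5. ZEP over VDE and PSY over PDS lie above all D libraries in every lit group, LUT2 over LYC lies below them in L, and BCH1 over BCH2 overlaps D in every group.

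Of the P450 hydroxylases, LUT5 changed most between 1h and 6h. LUT5 had 2.06, 3.84, 6.48, 17.6 and 18.9 spike-scaled CPM in D replicates 1 to 5, 4.83, 28.4, 5.27, 24.0 and 11.1 at 1h, 83.5, 122, 33.8, 140.3 and 114 at 6h, 125, 211, 169, 359.9 and 211 at 24h and 477, 551, 182, 498 and 371 in L. At 1h LUT5 overlapped D (0.59 ± 0.55, adjusted p = 1). At 6h it was higher by 3.34 ± 0.59 (adjusted p = 6.44e-05), after 24h by 4.46 ± 0.63 (6.29e-07) and in L by 5.41 ± 0.66 (1.27e-08). Against 1h, the 6h libraries of LUT5 lay above all 1h libraries, by 2.75 ± 0.58 (adjusted p = 0.00121). With TMM scaling LUT5 was higher than in D by 2.94 at 6h, 3.40 after 24h and 3.20 in L.

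LUT1 had 4.55, 7.97, 11.5, 22.9 and 22.2 spike-scaled CPM in D replicates 1 to 5, 7.36, 28.6, 7.19, 20.3 and 8.79 at 1h, 42.4, 50.5, 17.02, 53.9 and 45.9 at 6h, 43.8, 72.2, 44.5, 107 and 72.6 at 24h and 134, 152, 46.7, 138 and 76.0 in L. LUT1 overlapped D at 1h and did not pass (0.06 ± 0.48, adjusted p = 1). It rose by 1.60 ± 0.49 at 6h (0.0136), 2.30 ± 0.50 after 24h (0.000315) and 2.99 ± 0.51 in L (4.67e-06). These counts can miss reads of the gene: a merged entry that joins LUT1 and its neighbour AT3G53140 held 3.68% to 51.4% of their combined reads. With that entry added LUT1 had 1.21 at 6h, which was not called, 1.89 after 24h and 2.61 in L, which were. With TMM scaling the L value of LUT1 was 0.62 and was still called.

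BCH1 had the highest level per coding length in D and in L. BCH1 had 16.3, 24.8, 43.6, 87.7 and 79.4 spike-scaled CPM in D replicates 1 to 5, 43.3, 212, 56.8, 220.3 and 89.9 at 1h, 111, 218, 119, 272 and 206 at 6h, 192, 400.1, 343, 490.3 and 316 at 24h and 2615, 3075.3, 907, 709 and 390.2 in L. At 1h it had 1.31 ± 0.56 and did not pass (adjusted p = 0.287), and with TMM scaling it was called, at 1.27 ± 0.33 (0.00931). It rose by 1.88 ± 0.57 at 6h (adjusted p = 0.0128), 2.79 ± 0.59 after 24h (0.000215) and 4.93 ± 0.65 in L (5.38e-08).

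BCH2 had 6.31, 6.48, 9.57, 11.3 and 8.89 spike-scaled CPM in D replicates 1 to 5, 23.4, 111, 20.1, 79.6 and 30.9 at 1h, 22.0, 27.4, 7.27, 23.8 and 24.7 at 6h, 85.4, 153, 118, 128 and 68.3 at 24h and 1049.8, 1316, 259, 235 and 124 in L. BCH2, not among the 10 genes, was higher at 1h by 2.64 ± 0.57 (adjusted p = 0.00313), and its 1h libraries did not overlap those of D. At 6h it had 1.31 ± 0.55 and did not pass (adjusted p = 0.0727; 1.53 and called without 6h replicate 3). At 24h it was higher than in D by 3.70 ± 0.60 (adjusted p = 6.02e-06) and in L by 6.13 ± 0.67 (1.71e-09). From 1h to 6h the value of BCH2 was -1.33 ± 0.55 (adjusted p = 0.0867) with spike scaling, and with TMM scaling it fell by 1.73 (adjusted p = 0.00111).

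The log2 ratio of BCH1 to BCH2 counts averaged 2.32 ± 0.74 in D, 1.26 ± 0.33 at 1h, 3.19 ± 0.63 at 6h, 1.65 ± 0.42 after 24h and 1.52 ± 0.24 in L (SD, n = 5 each). The differences from D were -1.06 ± 0.36, 0.86 ± 0.44, -0.67 ± 0.38 and -0.80 ± 0.35 in the same order. None passed (two-sided exact permutation, adjusted p = 0.0508, 0.106, 0.19 and 0.0693), and the libraries of each group overlapped those of D. Without D replicate 1, the D library with the lowest ratio, the 1h (-1.29) and the L (-1.04) differences were called. The within-set differences were -0.74, 1.01, -0.38 and -0.38 in replicates 1 and 2 and -1.27, 0.77, -0.87 and -1.08 in replicates 3 to 5.

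ZEP, which makes violaxanthin, was the only 1 of the 10 genes called at 1h with spike scaling and had the largest value of the 10 at 1h, after 24h and in L. ZEP had 3.08, 5.63, 10.05, 14.3 and 14.1 spike-scaled CPM in D replicates 1 to 5, 29.8, 96.6, 27.3, 62.7 and 37.1 at 1h, 72.8, 93.9, 34.2, 137 and 103 at 6h, 196, 305, 393, 571 and 247 at 24h and 1573, 1343, 515, 1501 and 1075 in L. The lowest 1h library, replicate 3, lay above the highest D library, replicate 4. ZEP rose by 2.43 ± 0.51 at 1h (adjusted p = 0.00211), 3.22 ± 0.52 at 6h (1.67e-05), 5.18 ± 0.57 after 24h (6.89e-09) and 6.99 ± 0.62 in L (2.67e-11). Among all genes tested, its spike-scaled change stood at percentile 97.9 at 1h, 96.6 at 6h, 97.6 after 24h and 97.6 in L. With TMM scaling the log2 fold changes were 2.41, 2.67, 3.99 and 4.63, all called. Within replicates 3 to 5 alone the spike-scaled 1h value was 1.72 and was not called, and within replicates 1 and 2 it was 3.86 and was.

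VDE had 9.35, 18.6, 24.8, 39.6 and 39.2 spike-scaled CPM in D replicates 1 to 5, 17.9, 58.9, 15.6, 30.3 and 20.9 at 1h, 85.8, 97.4, 38.2, 109 and 81.8 at 6h, 58.1, 84.0, 82.5, 135 and 64.7 at 24h and 104, 116, 53.5, 234 and 435 in L. VDE, the enzyme of the reverse step, overlapped D at 1h and did not pass (0.13 ± 0.49, adjusted p = 1). It rose by 1.65 ± 0.50 at 6h (adjusted p = 0.0141), 1.69 ± 0.50 after 24h (0.00595) and 2.84 ± 0.53 in L (1.35e-05). Its values after 24h and in L were nearest of the 10 genes to the all-gene median, at percentiles 68.3 and 66.9 of all genes. With TMM scaling VDE was called at 6h (1.11 ± 0.34, adjusted p = 0.00904) and neither after 24h (0.46 ± 0.34, 0.258) nor in L (0.53 ± 0.34, 0.194). Within replicates 3 to 5 alone its spike-scaled 24h value was 1.45 and was not called.

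The log2 ratio of ZEP to VDE counts was -1.60, -1.72, -1.30, -1.47 and -1.47 in D replicates 1 to 5, 0.74, 0.71, 0.81, 1.05 and 0.83 at 1h, -0.24, -0.05, -0.16, 0.33 and 0.33 at 6h, 1.75, 1.86, 2.25, 2.08 and 1.93 after 24h and 3.92, 3.54, 3.27, 2.68 and 1.31 in L. In D every library held fewer ZEP than VDE reads, and at 1h, 24h and in L every library held more. The difference from D was 2.34 ± 0.09 at 1h, 1.55 ± 0.14 at 6h, 3.49 ± 0.11 after 24h and 4.45 ± 0.46 in L, with no overlap (exact permutation as above, p = 0.00794 and 0.0141 after adjustment for each). The sets of replicates gave 2.39, 1.52, 3.47 and 5.39 in replicates 1 and 2 and 2.31, 1.58, 3.50 and 3.83 in replicates 3 to 5.

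Per kilobase of coding length, the order of the 10 genes differed between L and D. In L the mean spike-scaled CPM per kilobase was 1649.9 ± 1305 for BCH1, 1465 ± 879 for PSY, 599.6 ± 214 for ZEP, 366 ± 183 for ZDS, 268 ± 96.9 for LYC, 232 ± 81.8 for LUT5, 210.4 ± 72.8 for PDS, 188 ± 76.4 for LUT2, 136 ± 110.0 for VDE and 67.5 ± 28.1 for LUT1 (SD, n = 5). In D it was 54.0 ± 34.3 for BCH1, 44.4 ± 34.6 for PSY, 19.6 ± 12.9 for ZDS, 19.3 ± 13.6 for LUT2, 18.9 ± 9.45 for VDE, 18.5 ± 12.98 for PDS, 16.3 ± 9.97 for LYC, 8.53 ± 5.15 for LUT1, 5.47 ± 4.43 for LUT5 and 4.71 ± 2.51 for ZEP. Only BCH1 and PSY had a higher mean than ZEP in L, and all 9 other genes did in D. BCH1 and PSY differed from each other by less than their SD in both groups, and the same holds for the genes in places 3 to 7 in D. The LUT1 values leave out its merged entry, which held 3.68% to 51.4% of the combined reads, so the place of LUT1 could rest on missing reads.

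Set against the group before, LUT5, ZDS, LUT1 and VDE rose between 1h and 6h and ZEP between 6h and 24h. For 6h against 1h, 4 of 10 genes were called higher, where 13.6% of all genes were, and 0 lower, where 3.12% were: LUT5, ZDS (1.55 ± 0.52, adjusted p = 0.038), LUT1 (1.54 ± 0.49, 0.0271) and VDE (1.52 ± 0.50, 0.0336). PDS had 1.42 ± 0.53 (adjusted p = 0.0612) and was called with the replicate block (1.48) and without 1h replicate 2 or 4 (1.71 each) or 6h replicate 3 (1.64). The calls of ZDS, LUT1 and VDE were lost without 1h replicate 1 (1.35, 1.37 and 1.39), 1h replicate 3 (1.37 each), 1h replicate 5 (1.48, 1.41 and 1.43), 6h replicate 2 (1.51, 1.47 and 1.45), 6h replicate 4 (1.34, 1.43 and 1.40) or 6h replicate 5 (1.52, 1.51 and 1.52), and those of ZDS (1.57) and VDE (1.51) also without 6h replicate 1. With the merged entry added, LUT1 had 0.98 and was not called. With TMM scaling 5 of the 10 were called, ZDS, LUT1, LUT5, VDE and PDS, where 21.2% of all genes were called higher and 23.3% lower. Within replicates 1 and 2 alone 1 of 10 was called, where 3.02% of all genes were called higher, and within replicates 3 to 5 alone 3 of 10, where 11.3% were.

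At 24h against 6h, 1 of 10 was called higher and 0 lower, where 6.82% and 0.412% of all genes were. This was ZEP, by 1.96 ± 0.50 (adjusted p = 0.0121), with no overlap between the groups (1 of the 10 genes, against 12.1% of all genes). The call was lost without 6h replicate 3 (1.75) or 24h replicate 4 (1.70), and held with TMM scaling (1.32), where LYC (0.62) was called as well; 9.54% of all genes were then called higher and 7.57% lower. With the replicate block, ZEP, PDS (1.21) and LYC (1.33) were called, 3 of the 10, where 18.7% of all genes were called higher; without 24h replicate 1, LYC (1.58) was called too. VDE had 0.04 ± 0.49 here, the smallest value of the 10, below the all-gene median of 0.65. Within replicates 1 and 2 alone edgeR called none of the 10 (1 had an unadjusted p under 0.05) and 1.2% of all genes higher, and within replicates 3 to 5 alone 2 of 10 and 5.95% of all genes. Over all libraries DESeq2 called 2 of the 10 with Drosophila and 3 with median-ratio size factors, where 12.3% and 11.2% of all genes were called higher.

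In L against 24h, 6 of 10 were called higher, where 52.5% of all genes were, a share near that of all genes, and 0 lower, where 0.514% were. In PSY and LYC, 2 of the 10, every L library lay above every 24h library, as in 19% of all genes. The 6 called were BCH1 (2.14 ± 0.57, adjusted p = 0.00753), PSY (1.81 ± 0.56, 0.0154), ZEP (1.81 ± 0.49, 0.0087), LYC (1.70 ± 0.47, 0.00958), ZDS (1.58 ± 0.52, 0.0198) and LUT2 (1.20 ± 0.51, 0.0476). Within replicates 3 to 5 alone edgeR called none of the 10 (3 had an unadjusted p under 0.05) and 1.53% of all genes higher, and within replicates 1 and 2 alone 7 of 10 and 44.7% of all genes. Over all libraries DESeq2 called 8 of the 10 with Drosophila and 3 with median-ratio size factors, where 59.8% and 8.05% of all genes were called higher. With TMM scaling LYC (0.60) and ZEP (0.64) were called higher, where 5.98% of all genes were, and LUT1 (-0.49) lower, where 4.65% were. PSY lost its call without 24h replicate 1 (1.69) or L replicate 2 (1.52). ZDS lost it without 24h replicate 1 (1.41), L replicate 1 (1.40) or L replicate 2 (1.35). LUT2 lost it without 24h replicate 1 (1.08), 2 (1.23), 3 (1.12) or 5 (1.22) or L replicate 1 (1.10), 2 (1.02) or 4 (1.15). PDS and VDE, with 1.21 and 1.15, were called without 24h replicate 4 (1.50 and 1.38) or L replicate 3 (1.38 and 1.39).

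The 5 L libraries stood apart from one another in several of the 10 genes. In L replicates 1 to 5, VDE had 28.4, 27.3, 31.5, 68.6 and 160.1 TMM-scaled CPM, so replicates 4 and 5 were the high ones. BCH1 had 715, 725, 535, 208 and 144, BCH2 287, 311, 153, 69.1 and 45.8 and PSY 822, 788, 620.4, 384 and 338, with replicates 4 and 5 the low ones in all 3 genes. ZEP had 430.2, 317, 304, 441 and 396, without that split. LHY, a clock gene known to peak around dawn, had 335, 371, 377, 104 and 12.6 TMM-scaled CPM in the same libraries and CCA1, its close relative, 277, 287, 233, 121 and 39.1. These clock genes were chosen after their values were seen, and their part in the split was not tested. LHY also differed between groups: it was 7.37, 16.2, 14.2, 28.8 and 52.1 in D, 90.4, 139.6, 77.1, 352 and 321 at 1h, 4.44, 9.72, 9.75, 16.4 and 15.6 at 6h and 290.2, 395, 328, 337 and 359 after 24h.

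With all 5 L libraries VDE had 0.53 against D with TMM scaling and was not called. L replicates 4 and 5 held its highest values in L and the lowest of BCH1 and PSY, so leaving them out moves these values by itself. With L replicates 1 to 3 only, a choice made after the data had been seen, VDE was higher in L than in D by 1.79 with spike scaling. With TMM scaling it was lower by a called log2 fold change of -0.64, a call that rests on this choice. BCH1 then had 5.45 and 3.03, PSY 5.40 and 3.10, and ZEP 6.92 and 4.48, with spike and TMM scaling in that order, all called. The other 6 genes were called higher than in D under both scalings. The difference in the ratio of ZEP to VDE was then 5.09 and that of PSY to PDS 2.01.

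**Figure D4:**
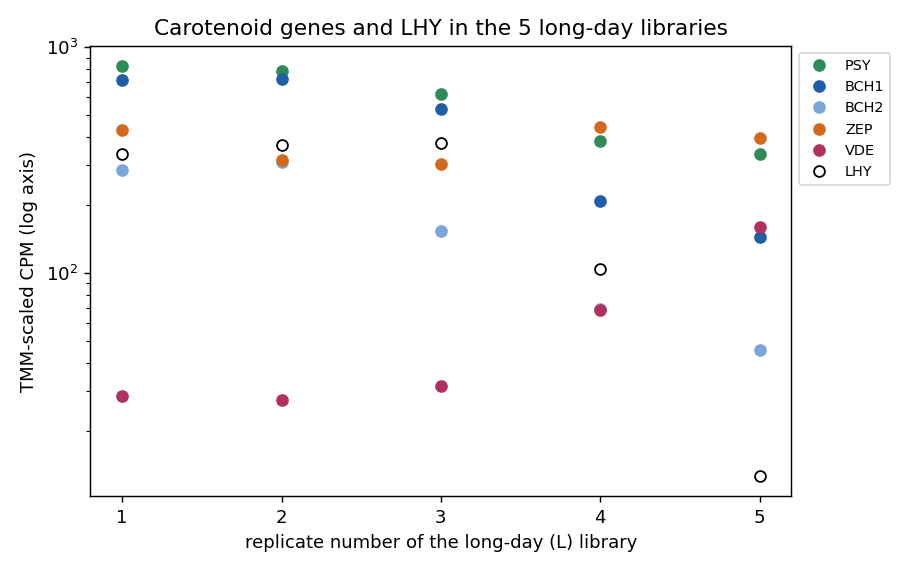
TMM-scaled CPM (log axis) of PSY, BCH1, BCH2, ZEP and VDE, and of the clock gene LHY (open), in each of the 5 L libraries. Replicates 4 and 5 are low for PSY, BCH1, BCH2 and LHY and high for VDE, while ZEP stays between 304 and 441.

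Counts of genes in the related pathways below are read against the shares of all genes called, which for higher than D at 1h, 6h, 24h and in L were 3.06%, 21.4%, 50.3% and 84.9% with spike scaling and 8.94%, 26.9%, 27% and 28.6% with TMM scaling. For lower than D they were 0.994%, 5.05%, 3.76% and 1.96% with spike scaling and 5.21%, 25.9%, 27.8% and 28.1% with TMM scaling. Of 5 other carotenoid enzymes, 1 was called higher than D at 1h, 1 at 6h, 5 after 24h and 5 in L, with medians of 0.15, 1.14, 2.10 and 3.19 at 1h, 6h, 24h and in L with spike scaling; the L count is near the share of all genes. Z-ISO (AT1G10830), the isomerase that acts between PDS and ZDS, had -0.23 at 1h and 1.43 ± 0.50 at 6h (adjusted p = 0.0321). That 6h call was lost without D replicate 1 (1.19), 2 (1.24) or 3 (1.41) or 6h replicate 2 (1.43), 4 (1.26) or 5 (1.34). Z-ISO then had 2.51 after 24h and 3.19 in L, both called. CRTISO (AT1G06820), the carotenoid isomerase before lycopene, had 0.15, 1.10, 1.94 and 3.19 at 1h, 6h, 24h and in L, the last 2 called, and its 6h value was called without D replicate 4 (1.40) or 6h replicate 3 (1.34). ABA4 (AT1G67080), needed for neoxanthin, had 0.45, 1.14, 2.02 and 3.35, of which the 24h and L values were called; at 6h it was called with the replicate block (1.13) and without D replicate 4 (1.56) or 6h replicate 3 (1.36). With TMM scaling 2, 4, 5 and 4 of the 5 enzymes were called higher at 1h, 6h, 24h and in L.

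Of 11 genes of the MEP pathway and of geranylgeranyl diphosphate synthesis, which supply the precursors, 0 were called at 1h by edgeR or DESeq2 (0 at an unadjusted p under 0.05), 4 were called higher at 6h, 11 after 24h and 11 in L, where 84.9% of all genes were. The list's medians were -0.05, 0.86, 2.30 and 3.13 at 1h, 6h, 24h and in L with spike scaling. With TMM scaling the counts were 5 at 6h, 7 after 24h and 9 in L, where 26.9%, 27% and 28.6% of all genes were called higher. The genes called at 6h were MDS (1.93), GGPPS11 (1.89), DXR (1.86) and MCT (1.53). The MCT call was lost without D replicate 1 (1.27), 2 (1.38) or 3 (1.44) or 6h replicate 1 (1.48), 2 (1.46), 4 (1.42) or 5 (1.49). GGPPS11 (AT4G36810), which makes the substrate of PSY, had -0.05 at 1h (0.12 with TMM scaling, neither called), 1.92 after 24h and 3.13 in L. In L the largest changes of the list were MDS (4.88), HDR (4.13), HDS (3.80) and MCT (3.67), 4 of its enzymes.

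Of 7 genes that work beside the xanthophyll cycle in shedding excess light energy, 1 was called higher at 1h and all 7 at 6h, after 24h and in L, under both scalings for the last 3, where 84.9% of all genes were called higher in L with spike scaling and 28.6% with TMM. The list's medians were 0.73, 2.63, 3.59 and 4.63 at 1h, 6h, 24h and in L with spike scaling. KEA3, a thylakoid antiporter of potassium and protons, had 2.42 ± 0.56 at 1h (adjusted p = 0.00655), 4.44 at 6h and 6.17 in L. PSBS, the photosystem II subunit that senses lumen acidity, had 2.98 at 6h and 4.79 in L, and PGRL1A, of cyclic electron flow, 2.80 and 6.14. LCNP, a plastid lipocalin, had 2.63 at 6h, and SOQ1, a suppressor of a slow form of quenching, 4.63 in L. With TMM scaling 5 of the 7 were called higher at 1h.

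Plastoquinone serves PDS and ZDS as electron acceptor, and tocopherol shares the geranylgeranyl precursor. Of 9 genes of their synthesis, 2 were called higher at 1h: SPS2, solanesyl diphosphate synthase (2.95 ± 0.58, adjusted p = 0.0011), and VTE1, tocopherol cyclase (2.41 ± 0.57, 0.00796). At 6h 3 were higher, VTE1 (3.75), SPS2 (3.56) and VTE2 (1.63), and HPPD, the dioxygenase that makes homogentisate, was lower (-2.08). At 24h 7 and in L 9 of 9 were called higher, where 50.3% and 84.9% of all genes were, with the largest values in L in VTE1 (8.21), SPS2 (6.92), VTE2 (4.84) and HST (4.49). Medians of the list were -0.07, 1.16, 2.83 and 4.32 at 1h, 6h, 24h and in L with spike scaling. With TMM scaling 2, 5, 5 and 7 were called higher and 0, 2, 2 and 1 lower at 1h, 6h, 24h and in L. Of all genes, 5.21%, 25.9%, 27.8% and 28.1% were called lower that way.

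Of 13 genes of carotenoid cleavage and abscisic acid synthesis, 7 had enough counts to be tested and 6 did not. None of the 7 was called at 1h by edgeR with spike scaling (1 at an unadjusted p under 0.05; DESeq2 called 0 with Drosophila and 1 with median-ratio size factors), 2 were called higher at 6h, 5 after 24h and 7 in L, where 21.4%, 50.3% and 84.9% of all genes were, and with TMM scaling 1, 2, 4 and 4 were called higher and 0, 1, 0 and 1 lower. Of all genes, 5.21%, 25.9%, 27.8% and 28.1% were called lower with TMM scaling. The median of the 7 was 0.50, 0.42, 1.76 and 3.18 at 1h, 6h, 24h and in L with spike scaling. D27, the isomerase at the start of strigolactone synthesis, had 137, 142, 40.8, 62.9 and 55.1 spike-scaled CPM in L, against 0, 0.0699, 0.196, 0.212 and 0.326 in D, log2 fold changes of 5.96 at 6h and 9.21 in L. At this low D level the fitted value depends on the prior count. CCD4, a dioxygenase that cleaves carotenoids in plastids, had 1.56 at 6h, lost without D replicate 1 (1.33) or 2 (1.45), and 7.13 in L. ABA2, of abscisic acid synthesis, had 4.20 and CCD1, a cytosolic dioxygenase, 3.18 in L.

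Of 9 regulators of carotenoid synthesis, 1 was called higher at 1h, 0 at 6h (edgeR; 0 at an unadjusted p under 0.05 and 0 by DESeq2), 5 after 24h and 6 in L, where 50.3% and 84.9% of all genes were called higher. With TMM scaling 2, 0, 2 and 1 were called higher, where 8.94%, 26.9%, 27% and 28.6% of all genes were, and 3, 3, 4 and 4 lower, where 5.21%, 25.9%, 27.8% and 28.1% were. The list's medians were -0.23, 0.27, 1.17 and 2.33 at 1h, 6h, 24h and in L with spike scaling. HY5, a transcription factor of light responses, rose at 1h (1.96 ± 0.50, adjusted p = 0.016), a call lost without D replicate 1 (1.78) or 1h replicate 2 (1.47). Its values of 0.26, -0.15 and 0.65 at 6h, 24h and in L did not pass, and with TMM scaling the 24h (-1.50) and L (-1.98) values were lower and called. PIF1, which represses PSY in the dark, had -0.65, 0.56, 1.17 and 2.33, the last 2 called. The 24h call of PIF1 was lost without D replicate 1 (0.95), 2 (1.00) or 3 (1.12) or 24h replicate 2 (1.10), 4 (1.06) or 5 (1.15), and with TMM scaling both were 0.04 and not called. PIF3, its relative, was lower at 6h (-1.36). OR (AT5G61670), which stabilises the PSY protein, had 0.84, 0.83, 2.71 and 4.59, of which the 24h and L values were called under both scalings. SDG8 (2.73), SINAT2 (2.63) and CLPC1 (2.40) were called in L with spike scaling and had 0.47, 0.18 and 0.05 with TMM scaling, none called.

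**Figure D5:**
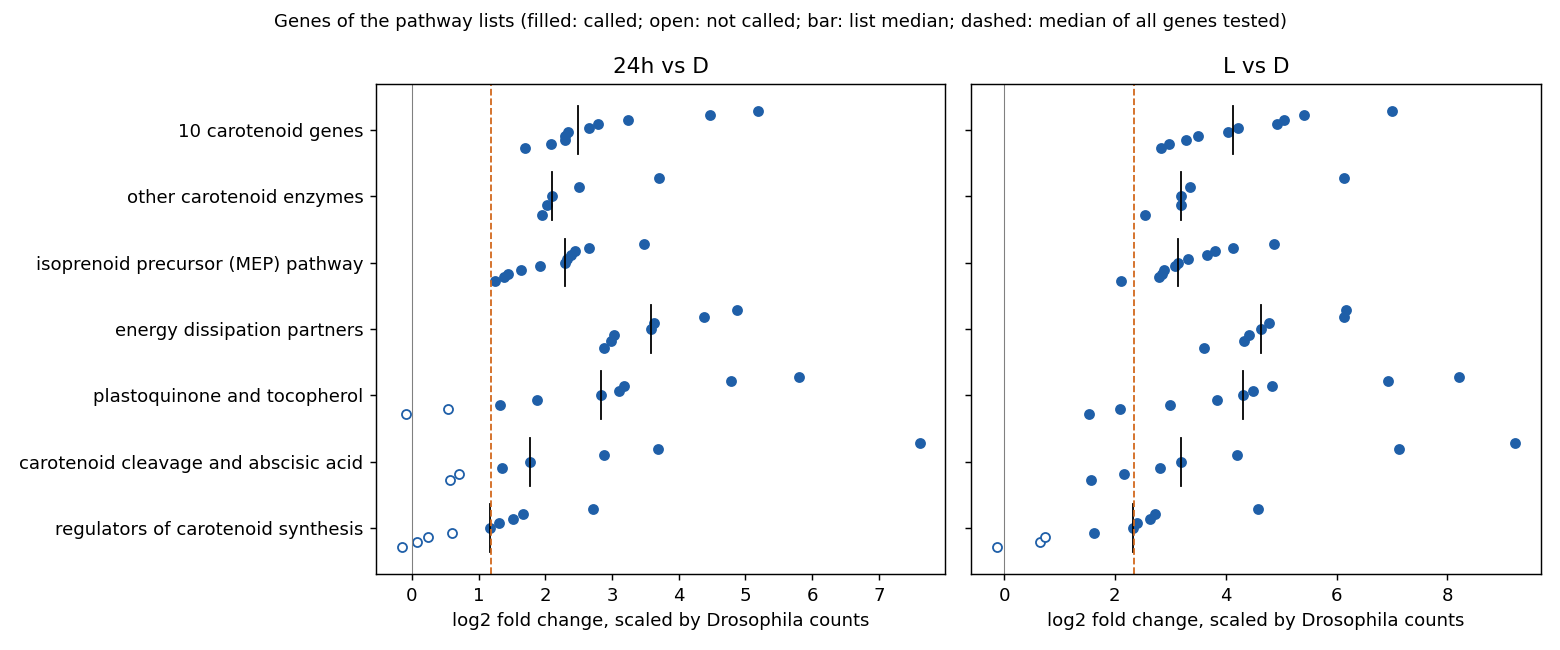
Log2 fold change after 24h and in L against D, scaled by Drosophila counts, of the genes of each pathway list; filled points were called, open points were not, black bars mark list medians and the dashed line the median of all genes tested. The medians of all lists but the regulators lie above the all-gene line in both panels.

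Some genes followed the 10 closely over the 25 libraries, by the Pearson correlation of log2 TMM-scaled CPM among 9760 genes. These values describe libraries in 5 groups and share the differences between groups and libraries, so they are given as a description. The genes most like PSY were SPS2 (r = 0.972) and ZFN1 (0.971), those most like LUT5 NTRC (0.986) and AT2G42770 (0.984), and those most like ZEP AT5G35970 (0.975) and AT3G01060 (0.971). PDS was followed most closely by ADSS (0.971) and HST (0.963), ZDS by PKp3 (0.979) and WNK6 (0.970), and BCH1 by ERD9 (0.972) and AT1G72500 (0.963). For LYC they were ELI3-1 (0.965) and PMDH2 (0.960), for LUT2 UMAMIT46 (0.958) and AT2G32640 (0.943), and for LUT1 AT3G12930 (0.956) and PDF1B (0.955). VDE had the least close neighbours, TUA3 (0.885) and LZF1 (0.882).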

How the data were processed

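The deposited values are whole-number counts per gene for 25 libraries, with Arabidopsis and Drosophila genes in 1 table. Per the submitters' processing notes, Salmon 1.9.0, HTSeq, R 4.3.2 and the build TAIR10 were used, with no roles given, so the whole numbers may be rounded Salmon estimates. Per the labels' protocols, Drosophila cells were added before extraction. Entries of neither species (0.119% to 0.741% of a library's counts) were left out. Entries that join several identifiers were kept apart from single genes.

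Counts were fitted with edgeR 4.0.16 in R 4.3.3 (glmQLFit, glmQLFTest) in 1 model of the 25 libraries after filterByExpr (minimum count 10, minimum total 15), with library sizes proportional to summed Drosophila counts and with the same geometric mean as the Arabidopsis totals. The biological coefficient of variation was 0.565. The 7 comparisons were the 4 lit groups against D, and 6h, 24h and L each against the lit group before it. An edgeR log2 fold change is given with an SE, taken as its absolute value divided by the square root of the test's F statistic. Ratios of 2 genes were computed per library as log2 counts plus 0.5 and tested by a two-sided exact permutation over 252 assignments. P-values measure the spread between libraries of a group; nothing says that these came from separate growths.

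Samples of the same number deviate together: the correlation of their deviations from the group means was above 0.1 in every pair for 1h, 6h and 24h against D (lowest 0.278, 0.169 and 0.160), 6h against 1h (0.309) and 24h against 6h (0.179), so the numbers pair the samples there. They do not for L against D (lowest 0.0420) or L against 24h (0.0375). The fits and ratio tests given first are unpaired, and the blocked value stands beside a result where it changes the call. Alternatives were TMM over Arabidopsis or Drosophila genes, no filter, only the groups compared, DESeq2 1.42.0 (size factors by median ratio or from Drosophila), the replicate block, the replicate sets as a term or alone, and each library left out. L replicates 1 to 3 alone, merged entries added, and TMM combined with the block or with those L libraries were added after the data had been seen.

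The 10 genes, the pathway lists, the tests and most alternatives were chosen with earlier results of these data known. Of each list, up to 4 called genes with the largest change at 1h, 6h and in L are named, with Z-ISO, CRTISO, BCH2, ABA4, GGPPS11, OR, PIF1 and HY5 whatever their values; clock genes and motifs were chosen apart from this rule. The edgeR step was tested on simulated counts in which most genes were unchanged and library sizes were taken as known. That test does not show how the spread of the Drosophila counts bears on the calls.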

Additional observations from a re-analysis of the deposited data

How the results depend on the processing

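Counts of the 10 genes called higher (or lower) are set against those in the report. Those within 1.5 times of it were 6 to 10 for 6h against D, 9 for 24h against D and 9 for L against D. They were 3 to 5 for 6h against 1h and 4 to 9 for L against 24h. Counts that differed by more came under the settings named next. For 1h against D they were 3 with TMM over Arabidopsis genes, 4 with TMM and the replicate block, 3 with DESeq2 median-ratio factors, 4 in replicates 1 and 2 and 0 in replicates 3 to 5, and for 6h against D 3 in replicates 3 to 5. For 6h against 1h it was 1 in replicates 1 and 2. For 24h against 6h the counts were 2 with TMM, 3 with the replicate block, 3 with both, 0 in replicates 1 and 2, 2 in replicates 3 to 5, 4 with only the 2 groups compared, and 2 and 3 with DESeq2 (Drosophila and median-ratio factors). For L against 24h they were 2 (lower 1) with TMM, 2 (1) with TMM and the block, 3 (1) with DESeq2 median-ratio factors and 0 in replicates 3 to 5. With TMM and L replicates 1 to 3, 1 gene was lower than in D and 2 lower than in 24h. Leaving out single libraries gave 6 to 9 for 6h against D, 1 to 5 for 6h against 1h, 0 to 2 for 24h against 6h and 3 to 8 for L against 24h.

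Signs turned as follows. In replicates 1 and 2 alone, values were for 1h against D PDS 1.34, GGPPS11 1.65, PIF1 0.75 and Z-ISO 1.39, for 24h against D HY5 0.53, for 24h against 6h VDE -0.37. In replicates 3 to 5 alone, values were for 1h against D ZDS -0.46, LYC -0.46, LUT2 -0.14, LUT1 -0.64, LUT5 -0.094, VDE -0.63, ABA4 -0.18 and CRTISO -0.63, for 6h against D HY5 -0.46, for L against D HY5 -0.69. With the replicate block, values were for 1h against D LUT1 -0.051 and GGPPS11 0.019. With TMM over Arabidopsis genes, values were for 1h against D GGPPS11 0.12, for 6h against D HY5 -0.37, for L against D HY5 -1.98, for 24h against 6h VDE -0.65, for L against 24h LUT1 -0.49 and LUT5 -0.20. With TMM and the block, values were for 1h against D GGPPS11 0.14, for 6h against D HY5 -0.44, for L against D HY5 -2.12, for 24h against 6h LUT1 -0.0025 and VDE -0.64, for L against 24h LUT1 -0.50, LUT5 -0.21 and VDE -0.075. With DESeq2 median-ratio factors, values were for 1h against D LUT1 -0.0041 and GGPPS11 0.10, for 6h against D HY5 -0.37, for L against D HY5 -1.97, for 24h against 6h VDE -0.64, for L against 24h LUT1 -0.49 and LUT5 -0.19. With TMM and L replicates 1 to 3, values were for L against D VDE -0.64, CLPC1 -0.18 and HY5 -1.57, for L against 24h LUT1 -0.52, LUT5 -0.30 and VDE -1.07. With the replicate set as a term, values were for 1h against D GGPPS11 0.15. With TMM over Drosophila genes, values were for 24h against 6h VDE -0.16. Leaving out 1 library turned the sign of values near 0, whose ranges were -0.29 to 0.45 for CRTISO in 1h against D, -0.36 to 0.28 for GGPPS11 in 1h against D, -0.34 to 0.32 for LUT1 in 1h against D, -0.11 to 0.38 for LYC in 1h against D, -0.55 to 0.096 for PDS in 1h against D, -0.31 to 0.32 for VDE in 1h against D, -0.19 to 0.16 for VDE in 24h against 6h, -0.56 to 0.078 for Z-ISO in 1h against D and -0.17 to 0.45 for ZDS in 1h against D.

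Exchanging labels only within a replicate number, the replicate block for ratios, leaves each difference as it is, and its exact test cannot go below p = 0.0625, so none of the 9 called differences passed (adjusted p = 0.0769 each); they were ZEP/VDE in 1h 2.34, PSY/PDS in 1h 1.91, ZEP/VDE in 6h 1.55, PSY/PDS in 6h 1.30, ZEP/VDE in 24h 3.49, PSY/PDS in 24h 1.12, LUT2/LYC in L -0.69, ZEP/VDE in L 4.45 and PSY/PDS in L 1.53. The numbers were not taken to pair L with D. The ratio differences moved by more than their SD in replicates 1 and 2, where they were 1.68 for PSY/PDS in 6h, 0.33 for LUT2/LYC in 24h, 1.48 for PSY/PDS in 24h, 5.39 for ZEP/VDE in L and 2.27 for PSY/PDS in L. With L replicates 1 to 3 LUT2/LYC in L was -0.71 and was no longer called (exact permutation, adjusted p = 0.0571). Without single libraries LUT2/LYC in 24h lay between -0.17 and 0.050, and BCH1/BCH2 between -1.29 and -0.85 in 1h and -1.04 and -0.59 in L. In L against 24h, whose numbers were not taken as pairs, the block also called PDS (1.32) and LUT5 (0.99). The block changed no other call of the 10 genes beyond those in the report. The causes were not tested. Among calls of the 10 genes against D, leaving out 1 library ended that of ZDS at 6h. In the unpaired spike-scaled edgeR fit of all libraries, the smallest called change of the 10 genes was 1.20; the replicate block called smaller ones.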
